A study of Homo sapiens with 6 samples.

Results

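The genes described here encode the chains of the integrins, the receptors by which cells hold on to extracellular matrix and to other cells, and the chains of the laminins, trimeric proteins of basement membranes that several integrins bind. A probe set was taken where the probe-gene table gave it exactly 1 symbol and that symbol was one of an integrin alpha chain, an integrin beta chain or a laminin chain. Members were thus chosen by symbol. Where a gene has several probe sets, the one is selected on its mean level over all 6 arrays, a value that does not use the difference between groups, and none of these genes had more than 1 probe set. It gave 35 genes of the 18417 tested, of which 17 were integrin alpha, 8 integrin beta and 10 laminin chains. ITGA1 shares its probe set with PELO and is described apart.

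An integrin is a pair of 1 alpha and 1 beta chain, and the pair sets which ligand is bound. The beta1 chain pairs with many alpha chains, alphaV pairs with several beta chains, and fibroblasts use such pairs to bind collagens, fibronectin and laminins and to pull latent TGF-beta into its active form. Each laminin is a trimer of 1 alpha, 1 beta and 1 gamma chain, and the alpha chain carries the main sites that integrins bind. Oncostatin M belongs to the cytokines related to interleukin-6, whose receptors contain gp130 and act through JAK kinases and STAT transcription factors.

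The cells were IMR90, human lung fibroblasts that the labels call primary. The 3 control samples were untreated, and the 3 others received recombinant human oncostatin M at 10 ng/mL as a single dose, for a time not given in the sources used here. Both groups were otherwise described alike, and total RNA of each sample was read on 1 gene-level Affymetrix array. The comparison asks which of these transcripts differed in level after the cytokine. Levels are log2 values given as mean ± SD over 3 arrays, a change is the treated mean less the control mean in log2 units, with its standard error (SE), and adjusted p-values come from limma over all genes tested. Nothing in the labels says that the replicates came from separate cultures. The p-values therefore reflect the spread of these samples alone, possibly a technical one, and the number of arrays limits the precision.

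Array medians lay between 6.54 and 6.66 over all probe sets. Oncostatin M 1 stood apart from its group, with the lowest array weight estimated by limma (0.226, against 0.723 to 3.225 for the other arrays). The highest weight (3.225) was that of oncostatin M 3. The files hold no detection calls, so 409 genes taken as silent in fibroblasts, those of olfactory receptors and keratin-associated proteins, served as a gauge of background. Their median was 4.67 in control and their percentile 95, called the silent bound below, was 6.74 in control and 6.77 after oncostatin M. Of the 35 genes, 14 lay at or below the bound in both groups, and no fold is given for them. Fibroblast genes stood far above the bound in control, as for COL1A1 (13.22), COL1A2 (12.88) and VIM (12.89). EPCAM (4.71), CDH1 (4.97), PTPRC (3.83) and PECAM1 (4.83), which mark epithelium, leukocytes and endothelium, lay below the bound. Some other markers of those cell types lay above it in control, namely KRT18 (8.98), KRT8 (7.76), CD68 (10.67), TEK (8.57) and CLDN5 (6.96).

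LAMA4, which encodes the laminin alpha4 chain, was the only one of the 35 genes to pass an adjusted p of 0.05, and it rose 2.48-fold. Over all genes tested, 3.42% passed in either direction, 1.72% as higher and 1.7% as lower, so the share of these 35 genes that passed lay near the background. No integrin chain passed. Without adjustment 14 of the 35 had a p under 0.05 (limma), 5 higher and 9 lower, beside 11.6% of all genes. The groups did not overlap for 13 of the 35, beside 18% of all genes. In total RNA of a culture, more transcript per cell and a larger share of cells with the transcript cannot be told apart.

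**Figure D1:**
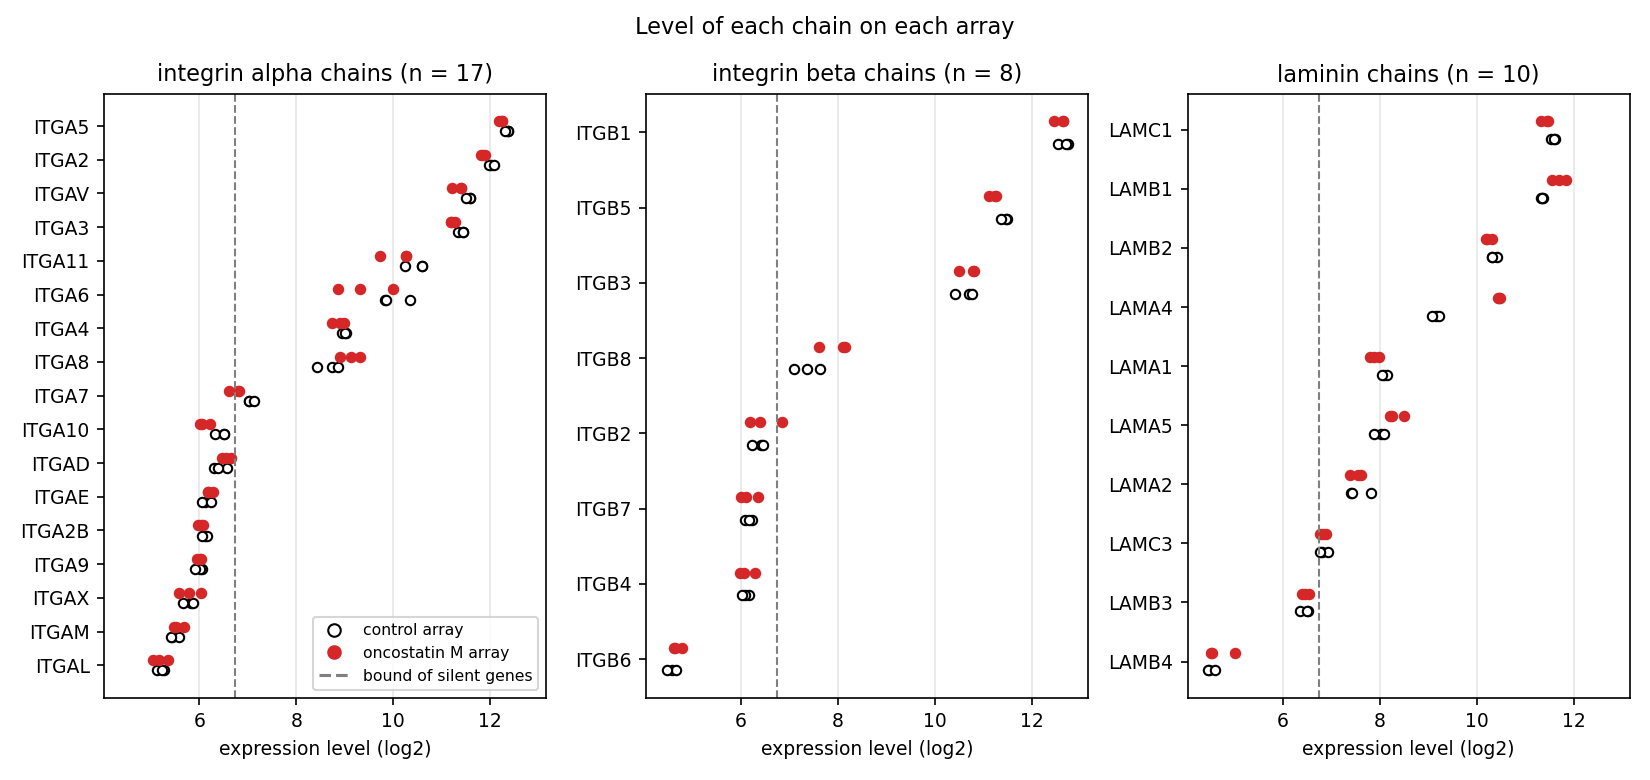
Expression level (log2) of each of the 35 chains on each of the 6 arrays, with open points for the 3 control arrays, red points for the 3 oncostatin M arrays and a dashed line at the control value of the silent bound (6.74). LAMA4 shows 2 tight and separate clusters, near 9.15 in control and 10.46 after oncostatin M, whereas the points of most other chains lie close together or overlap.

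LAMA4 (probe set 8128991) read 9.17, 9.22 and 9.07 on control arrays 1, 2 and 3. It read 10.46, 10.49 and 10.44 on oncostatin M arrays 1, 2 and 3. The groups were far apart, and the treated arrays lay closer together than the controls. The mean went from 9.15 ± 0.07 to 10.46 ± 0.02, a change of 1.31 (SE 0.07, 95% confidence interval 1.15 to 1.47, adjusted p = 0.00010, limma), seen on 3 of 3 treated arrays. By size of rise it ranked 34 of 18417 genes, and by p-value 11. The change lay between 1.27 and 1.34 when each array was left out in turn, with adjusted p between 7.1e-05 and 0.0033, and was 1.31 without oncostatin M 1.

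The alpha4 chain assembles with beta1 or beta2 and with gamma1, and laminins that hold it are best known from the basement membranes of blood vessels, muscle and fat. The other chains of the alpha4, beta1 and gamma1 trimer had smaller changes, neither past the threshold. LAMB1 (probe set 8142194) read 11.36, 11.34 and 11.34 on the control arrays and 11.85, 11.71 and 11.56 on the treated arrays. The groups did not overlap, and the treated arrays were more spread than the controls. Its change of 0.36 (SE 0.09, 95% confidence interval 0.16 to 0.56) had an adjusted p of 0.0793 (limma), short of the threshold. With a variance prior that follows intensity the adjusted p was 0.017, and with genes at or below the silent bound left out it was 0.0443.

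LAMC1 (probe set 7908041), the gamma1 chain of most laminins, read 11.61, 11.52 and 11.59 in control and 11.34, 11.46 and 11.47 after oncostatin M. All treated arrays were below all controls, but the change was small, at -0.15 (SE 0.07, 95% confidence interval -0.32 to 0.01, adjusted p = 0.506, limma). LAMB2, the beta2 chain, differed by -0.11 (adjusted p = 0.742, limma), with groups that overlapped. Within arrays, the log2 ratio of LAMA4 to LAMB1 was higher after oncostatin M by 0.95 and that of LAMA4 to LAMC1 by 1.46. For both ratios the groups did not overlap, and a two-sided exact permutation test gave p = 0.1, also when adjusted over the 2 ratios, which is the smallest p that 3 against 3 arrays allow.

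The starts of these 3 genes are shown because their chains form 1 trimer and their changes ranged from -0.15 to 1.31. Each line holds the 250 bases before the RefSeq start (GRCh38.p14), 5′ to 3′ on the strand of the gene, at chr6:112254568-112254817 (minus strand) for LAMA4, chr7:108003162-108003411 (minus) for LAMB1 and chr1:183023170-183023419 (plus) for LAMC1. Capitals mark GGGCGG, the core of a GC box, or its complement CCGCCC.
LAMA4: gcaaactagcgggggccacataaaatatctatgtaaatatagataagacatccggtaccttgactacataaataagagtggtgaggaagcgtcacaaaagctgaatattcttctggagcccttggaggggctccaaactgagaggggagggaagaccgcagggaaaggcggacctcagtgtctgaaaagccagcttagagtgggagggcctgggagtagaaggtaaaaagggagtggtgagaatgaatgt
LAMB1: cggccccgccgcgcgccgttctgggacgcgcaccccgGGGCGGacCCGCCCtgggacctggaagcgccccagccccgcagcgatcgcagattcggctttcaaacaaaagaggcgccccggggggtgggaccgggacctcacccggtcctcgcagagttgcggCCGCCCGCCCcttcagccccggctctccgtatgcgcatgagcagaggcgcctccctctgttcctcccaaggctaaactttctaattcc
LAMC1: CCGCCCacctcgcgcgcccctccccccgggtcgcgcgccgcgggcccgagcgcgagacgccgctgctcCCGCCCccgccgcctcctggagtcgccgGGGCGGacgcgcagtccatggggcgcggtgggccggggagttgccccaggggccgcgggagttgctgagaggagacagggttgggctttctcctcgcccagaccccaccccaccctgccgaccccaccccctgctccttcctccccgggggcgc

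The LAMA4 window held no GGGCGG on either strand, while that of LAMB1 held 4, of which a pair overlaps, and that of LAMC1 held 3. Bases G and C made up 48.4% of the LAMA4 window, 70.4% of the LAMB1 window and 79.6% of the LAMC1 window, against a median of 58% over all 35116 windows of the table, each read over the same 250 bases. GGGCGG occurred in 42.6% of all windows. TTCNNNGAA, the letters of a STAT site, and TGANTCA, those of an AP-1 site, each occurred in 6.57% of all windows and in none of these 3. Of the 24 member genes for which the table had windows, 13 held GGGCGG in at least 1 window, 2 held TTCNNNGAA (ITGAE and LAMB2) and 1 held TGANTCA (LAMB3). These motifs were read on both strands and describe letters only.

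The remaining laminin alpha chains gave smaller differences. LAMA5 (probe set 8067409), the alpha chain common in epithelial and vascular basement membranes, read 8.03, 8.09 and 7.88 in control and 8.49, 8.25 and 8.21 after oncostatin M. The treated arrays were all above the controls, with oncostatin M 1 highest, and the change was 0.32 (SE 0.10, adjusted p = 0.189, limma). LAMA1 (probe set 8022176), the alpha chain of the early embryonic laminin, read 8.08, 8.14 and 8.04 against 7.80, 7.99 and 7.88. Here the treated arrays were all below the controls, and the change was -0.20 (SE 0.08, adjusted p = 0.348, limma). LAMA2, the alpha chain of muscle basement membrane, differed by -0.03 (95% confidence interval -0.32 to 0.26), with control 3 (7.82) above the other controls (7.40 and 7.43). LAMC3 differed by less than 0.01 (95% confidence interval -0.18 to 0.18), and LAMB3 and LAMB4 lay at or below the silent bound in both groups.

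Taken over the 10 laminin chains, 6 changes were above 0 and 4 below, and the median change was 0.0035 beside 0.00057 for all genes tested. Groups did not overlap for 3 chains that were higher and 2 that were lower, against 7.43% and 10.6% of all genes. LAMA4 thus stood well outside the range of the other 9 chains, which ran from -0.20 to 0.36. The differences between it and those chains were not tested beyond the 2 ratios given above, which cannot decide them.

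**Figure D2:**
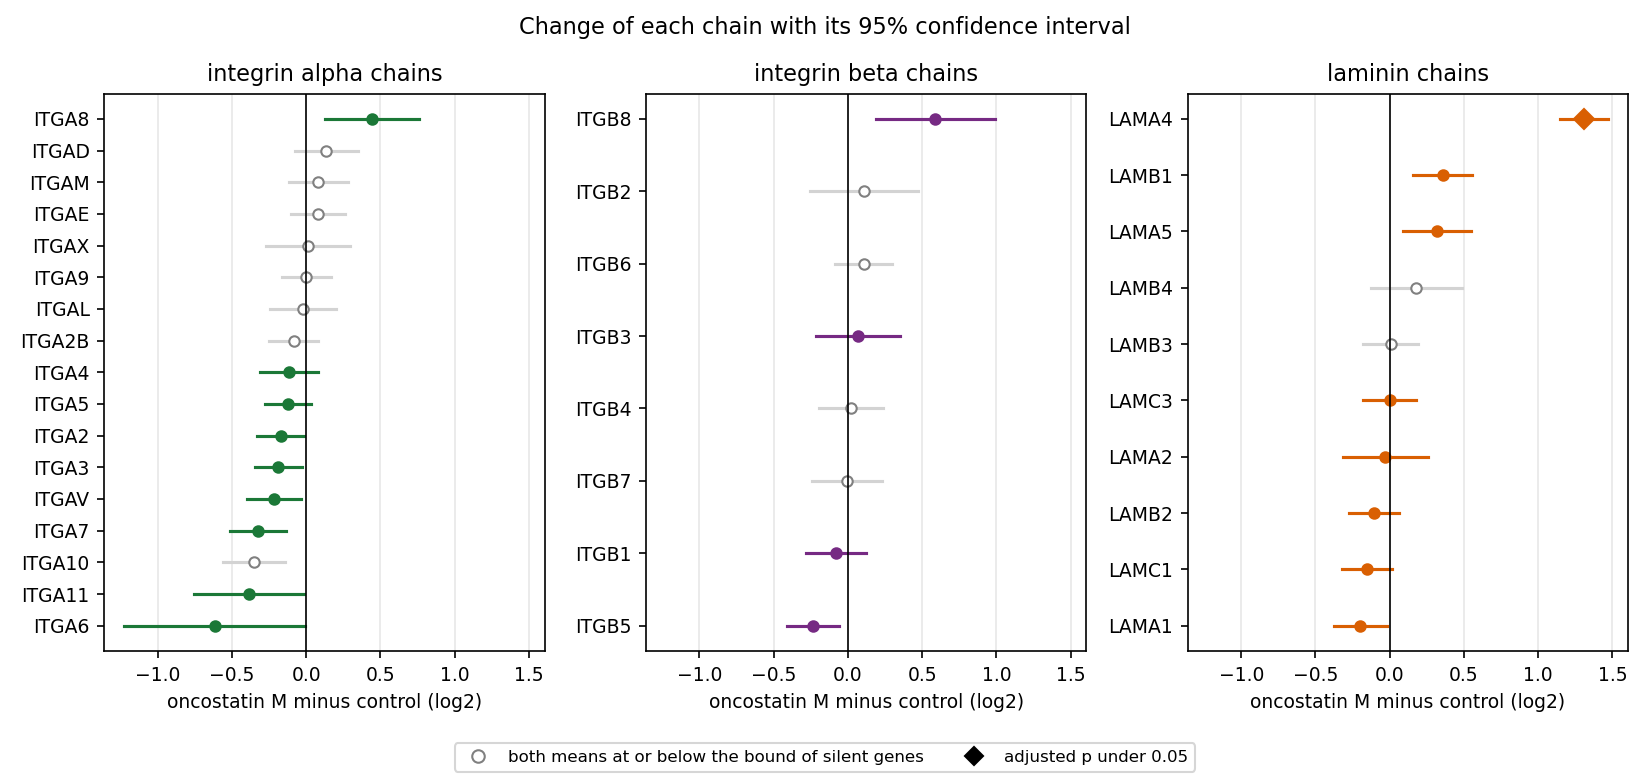
Change of each chain (oncostatin M minus control, log2) with its 95% confidence interval from limma, for integrin alpha chains (green), integrin beta chains (purple) and laminin chains (orange). The diamond marks LAMA4, the only chain with an adjusted p under 0.05, and open points mark the 14 chains at or below the silent bound in both groups. The intervals of ITGB8, ITGA8, LAMB1 and LAMA5 lie above 0 and those of ITGA6 and ITGA11 are wide and just below it.

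Among the 17 integrin alpha chains none passed the threshold over all genes, in either direction. At an unadjusted p under 0.05 (limma), 7 were lower and 1 was higher, where 6.66% and 4.98% of all genes were. Groups did not overlap for 6 chains that were lower and 1 that was higher, beside 10.6% and 7.43% of all genes. The median change of the 17 was -0.12, with 11 changes below 0 and 6 above. Of the 9 alpha chains above the silent bound in at least 1 group, 6 were lower and 1 higher at that unadjusted p. Among all 11120 genes above it, 1077 were lower and 706 higher. The median change was -0.19 for those 9 chains and -0.017 for those 11120 genes. These unadjusted counts and medians describe the list, which was not tested as a whole.

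The collagen-binding chains measured were ITGA2, ITGA10 and ITGA11, and all 3 changes were below 0. ITGA2 (probe set 8105267), which forms a collagen receptor with beta1, read 12.03, 11.98 and 12.07 in control and 11.80, 11.86 and 11.90 after oncostatin M. The treated arrays were all lower, and the change was -0.17 (SE 0.07, 95% confidence interval -0.33 to -0.013, adjusted p = 0.368, limma). ITGA11 (probe set 7989985), a receptor for fibrillar collagen typical of fibroblasts, read 10.59, 10.59 and 10.23 against 10.26, 10.26 and 9.73. In each group the array numbered 3 was lowest, and control 3 lay among the treated arrays. The change of -0.39 (SE 0.16, adjusted p = 0.406, limma) was -0.21 without oncostatin M 3 and -0.61 with array weights, where it passed (adjusted p = 0.0396).

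ITGA10 (probe set 7904761), a collagen receptor chain of cartilage, read 6.31, 6.52 and 6.50 in control and 6.22, 6.05 and 6.01 after oncostatin M. The treated arrays were lower without overlap, but all 6 values lay below the silent bound. Its adjusted p was 0.0935 (limma), and it passed without oncostatin M 1 (adjusted p = 0.0317), with array weights (0.012) and after a further quantile normalization (0.0494). The probe set that PELO and ITGA1 share, for a translation rescue factor and another collagen-binding chain, read 10.86 ± 0.12 in control and 10.91 ± 0.13 after oncostatin M. Its change was 0.04 (SE 0.10, adjusted p = 0.998, limma over all 33297 probe sets), and it cannot be assigned to either gene.

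The laminin-binding chains ITGA3, ITGA6 and ITGA7 also all had changes below 0, none past the threshold. Changes below 0 were not particular to them, as 8 of the 9 alpha chains above the silent bound in at least 1 group had one. ITGA3 (probe set 8008237) read 11.35, 11.44 and 11.44 in control and 11.20, 11.19 and 11.27 after oncostatin M. The 2 groups were tight and separate, with a change of -0.19 (SE 0.07, adjusted p = 0.296, limma). ITGA7 (probe set 7963880), best known from muscle, read 7.03, 7.03 and 7.13 against 6.79, 6.60 and 6.82. All treated arrays were lower and their mean (6.74) reached the silent bound, so the size of the change of -0.33 (SE 0.08, adjusted p = 0.0908, limma) is uncertain. It passed with array weights (adjusted p = 0.0427) and with genes at or below the silent bound left out (0.0488).

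ITGA6 (probe set 8046380), which pairs with beta1 or beta4 to bind laminin, had the lowest change of the 35 genes and also the widest interval. It read 9.83, 9.84 and 10.34 in control and 8.86, 9.32 and 9.99 after oncostatin M. The treated arrays were spread over more than 1 unit, oncostatin M 3 lay above 2 of the controls, and each group was highest on its array numbered 3. The change was -0.62 (SE 0.27, 95% confidence interval -1.23 to -0.0060, adjusted p = 0.421, limma). It was -0.35 without oncostatin M 1 (adjusted p = 0.528), -0.92 without oncostatin M 3 (0.0584) and -0.20 with array weights (0.687), so its size rested on those arrays.

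Of the chains that bind the Arg-Gly-Asp motif of fibronectin, vitronectin and latent TGF-beta, ITGA8 differed upward and ITGA5, ITGAV and ITGA2B downward, none past the threshold. ITGA8 (probe set 7932254), a partner of beta1 that binds nephronectin, read 8.74, 8.86 and 8.42 in control and 9.12, 9.31 and 8.91 after oncostatin M. The lowest treated array lay just above the highest control, and the array numbered 3 was lowest in each group. The change was 0.44 (SE 0.14, 95% confidence interval 0.12 to 0.76, adjusted p = 0.188, limma), the only alpha chain with an interval above 0.

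ITGAV (probe set 8046861), the common partner of beta1, beta3, beta5, beta6 and beta8, read 11.58, 11.59 and 11.49 in control and 11.40, 11.40 and 11.22 after oncostatin M. The groups did not overlap, and the change was -0.22 (SE 0.08, adjusted p = 0.301, limma). With array weights, highest on oncostatin M 3, ITGAV passed the threshold at a change of -0.29 (adjusted p = 0.0367, limma). Without oncostatin M 3 its change was -0.15 (adjusted p = 0.663, limma). ITGA5 (probe set 7963786), the alpha chain of the main fibronectin receptor, read 12.36, 12.37 and 12.31 against 12.24, 12.25 and 12.18. These groups did not overlap either, with a change of -0.12 and a 95% confidence interval from -0.28 to 0.03 (adjusted p = 0.596, limma). ITGA2B, the platelet chain, lay below the silent bound in both groups.

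ITGA4, which binds VCAM1 and fibronectin, went from 8.99 ± 0.04 to 8.87 ± 0.13, with groups that overlapped and a 95% confidence interval of the change from -0.31 to 0.08. ITGA9 and the leukocyte chains ITGAD, ITGAE, ITGAL, ITGAM and ITGAX all lay below the silent bound in both groups, with control means from 5.21 to 6.42. None of these 6 had an unadjusted p under 0.05, and the groups of each overlapped. In the RefSeq gene order ITGAM, ITGAX and ITGAD are neighbours, as are LAMB1 and LAMB4.

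None of the 8 integrin beta chains passed, and their median change was 0.04, with 5 above 0 and 3 below. ITGB8 (probe set 8131666), which pairs with alphaV to activate latent TGF-beta, read 7.37, 7.08 and 7.62 in control and 8.10, 8.13 and 7.60 after oncostatin M. Oncostatin M 1 and 2 lay above every control, but oncostatin M 3 lay just under control 3. The change was 0.59 (SE 0.17, 95% confidence interval 0.19 to 0.99, adjusted p = 0.156, limma), and without oncostatin M 3 it was 0.76 and passed (adjusted p = 0.0477). Its partner ITGAV, given above, differed in the other direction.

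ITGB5 (probe set 8090162), another partner of alphaV and a vitronectin receptor, read 11.49, 11.47 and 11.36 in control and 11.26, 11.24 and 11.11 after oncostatin M. All treated arrays were lower, and the change was -0.24 (SE 0.08, adjusted p = 0.219, limma). With array weights ITGB5 passed at -0.30 (adjusted p = 0.0223, limma), whereas without oncostatin M 3 its change was -0.19 (adjusted p = 0.548, limma). ITGB1, the beta chain shared by most matrix receptors, read 12.74, 12.54 and 12.70 against 12.46, 12.65 and 12.63. These groups overlapped, and the 95% confidence interval of the change of -0.08 ran from -0.28 to 0.12.

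ITGB3, which forms a vitronectin receptor with alphaV, read 10.63 ± 0.19 in control and 10.70 ± 0.17 after oncostatin M, again with overlap. ITGB2, ITGB4, ITGB6 and ITGB7, which belong mainly to leukocytes and epithelia, lay at or below the silent bound in both groups. ITGB2 was highest on oncostatin M 1 (6.84, against 6.17 and 6.40 on the other treated arrays). At an unadjusted p under 0.05 (limma) 1 beta chain was lower and 1 higher, beside 6.66% and 4.98% of all genes.

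**Figure D3:**
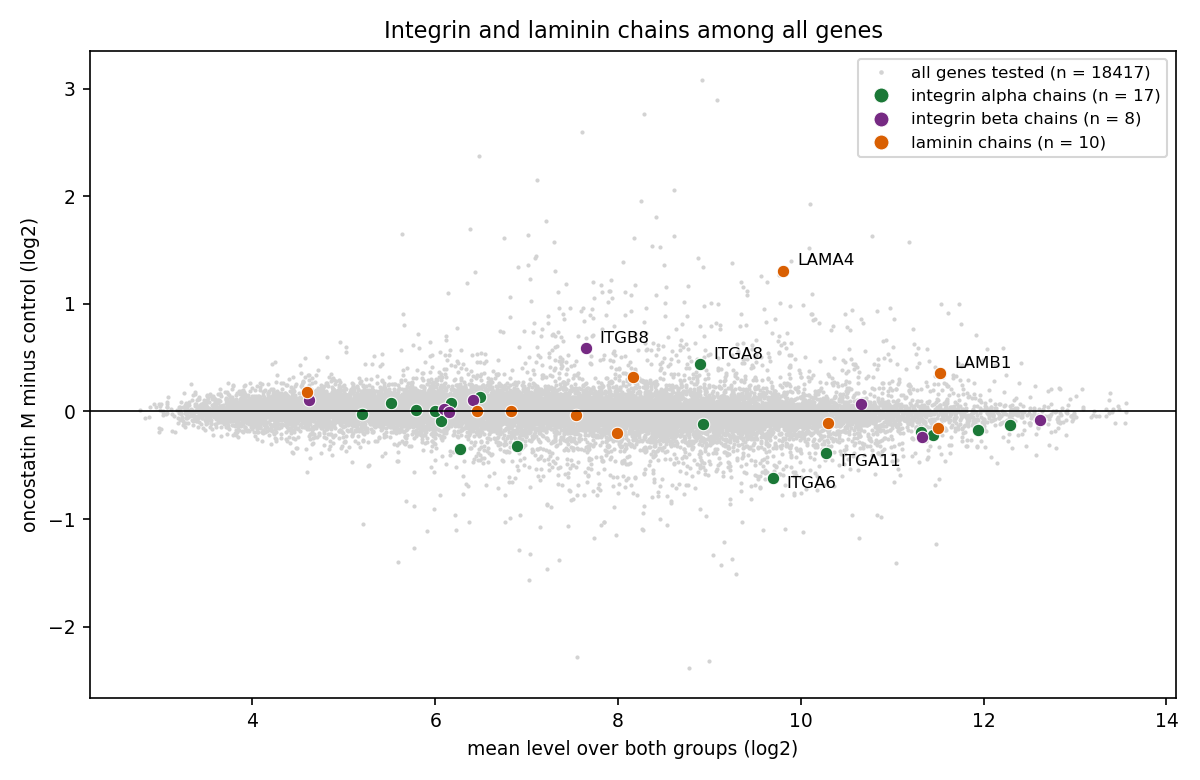
Change after oncostatin M (log2) against the mean level over both groups (log2) for all 18417 genes tested (grey) and the 17 integrin alpha, 8 integrin beta and 10 laminin chains (coloured). LAMA4 stands at a change of 1.31 above the body of genes of like level, and ITGB8, ITGA8, LAMB1, ITGA6 and ITGA11 lie at or near its edge.

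The partners of these chains were read from 6 lists of ligands, matrix partners, adaptors, membrane partners and latent TGF-beta genes, in which 85 entries were measured and 7 passed, beside 3.42% of all genes. With an array left out, none passed without control 1 (limma, 22 at an unadjusted p under 0.05), 1 without control 2, 2 without control 3, 3 without oncostatin M 2 and 4 without oncostatin M 3, while 7 did without oncostatin M 1. Of 14 matrix ligands of integrins none passed, with a median change of 0.0061. CCN1, a matricellular ligand of alphaV and alpha6 integrins, had the smallest p, with a change of -0.24 (SE 0.07, adjusted p = 0.164, limma). Of 8 cell surface counter-receptors, VCAM1, the ligand of alpha4 integrins, was the only one that passed. It read 7.33, 7.26 and 7.48 in control and 9.05, 8.93 and 8.25 after oncostatin M, so that all treated arrays were higher and oncostatin M 3 was the lowest of them. VCAM1 rose by 1.39 (SE 0.19, adjusted p = 0.00614, limma), and the call was lost without control 1 (adjusted p = 0.0554).

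Among 16 laminin partners and other basement membrane genes, HSPG2 was lower and none was higher past the threshold. Over all genes tested, 1.7% were lower and 1.72% higher. HSPG2 encodes perlecan, the heparan sulfate proteoglycan of basement membranes, and read 10.10, 10.22 and 10.20 in control against 9.79, 9.79 and 9.87. All treated arrays were lower, and HSPG2 fell by 0.36 (SE 0.07, adjusted p = 0.0332, limma), a call that was lost in 5 of 6 fits with an array left out (adjusted p up to 0.146, without control 3). NTN4, a laminin-related netrin that binds laminin gamma chains, differed by 0.38 (SE 0.09, adjusted p = 0.0641, limma). The median of the 16 was 0.03, with 9 changes above 0 and 7 below.

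Of 27 cytoplasmic adaptors and kinases of integrins 3 were lower past the threshold and none was higher, where 1.7% and 1.72% of all genes were. TNS1, a tensin that links integrins to actin, fell by 0.47 (SE 0.07, adjusted p = 0.0107, limma). NEDD9, a docking protein of focal adhesions, fell by 0.46 and ZYX, a zyxin of tension-bearing adhesions, by 0.32. Of the 27 changes 20 were below 0, with a median of -0.12. Of all 18417 genes 9165 were below 0. Among the 11120 genes above the silent bound in at least 1 group, 6232 were, with a median of -0.017. The calls were lost on leaving out 1 array in 3 of 6 fits for TNS1 (adjusted p up to 0.0671), 5 for NEDD9 (0.155) and 6 for ZYX (0.19), all highest without control 1. Of 5 smooth muscle markers 1 (CNN1) was lower past the threshold, where 1.7% of all genes were. ACTA2 and LMOD1 were lower without overlap of the groups but did not pass (adjusted p = 0.257 and 0.219, limma). MYH11, at or below the silent bound in both groups, and DES, with a change of 0.016, had groups that overlapped. The mean level of the list ran from 9.10 to 9.24 on control arrays and from 8.82 to 9.05 on treated arrays. The part of contractile genes in the adaptor values was not tested.

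Of 11 membrane partners, CD82 was lower and SLC3A2 higher past the threshold, where 1.7% and 1.72% of all genes were. CD82, a tetraspanin that restrains integrin-driven migration, read 10.38, 10.53 and 10.23 in control and 9.84, 9.64 and 9.40 after oncostatin M. The groups were well apart, and CD82 fell by 0.76 (SE 0.12, adjusted p = 0.0142, limma). SLC3A2, the CD98 heavy chain that binds integrin beta tails and carries amino acid transporters, rose by 0.39 (SE 0.07, adjusted p = 0.0162, limma). The call of CD82 was lost in 2 of 6 fits with an array left out and that of SLC3A2 in 5, both highest without control 1 (adjusted p = 0.0923 and 0.0976). Of 9 genes of latent TGF-beta and its binding proteins none passed, and LRRC32, which tethers latent TGF-beta to cell surfaces, had the smallest p with a change of 0.31 (SE 0.08, adjusted p = 0.0826, limma).

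**Figure D4:**
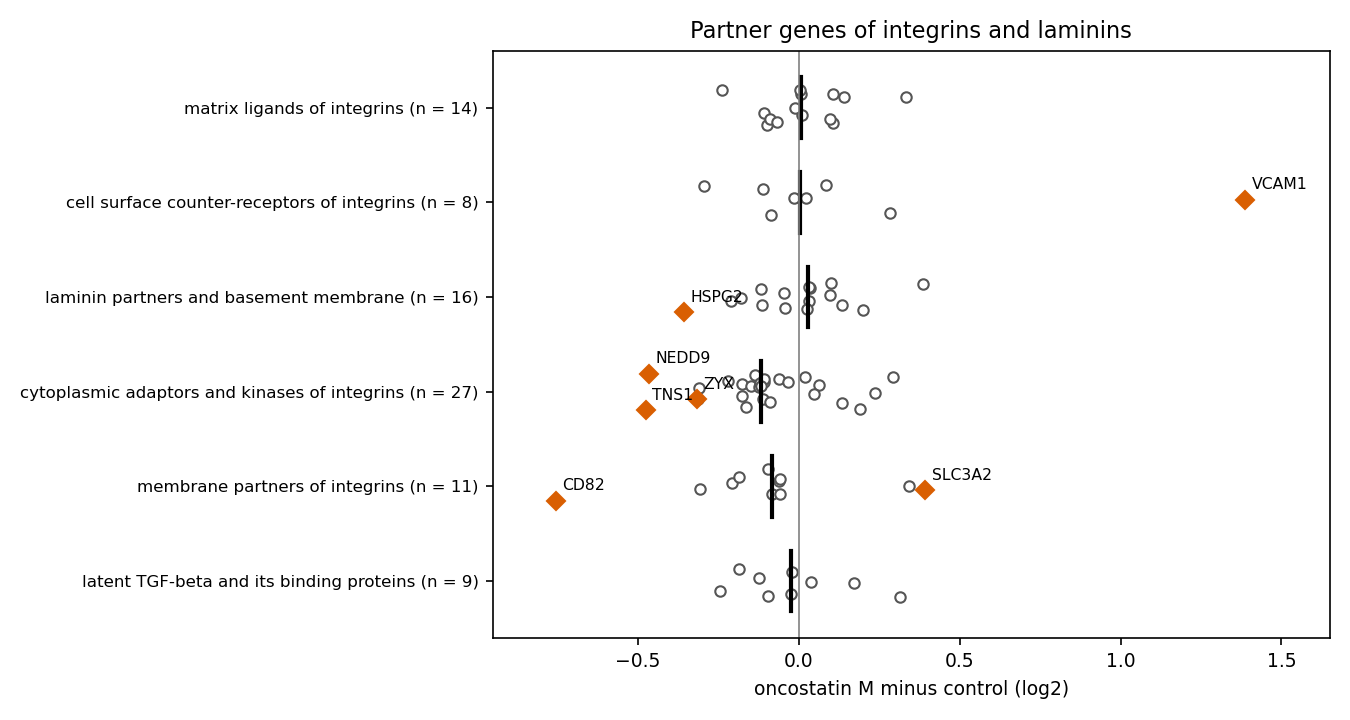
Change after oncostatin M (log2) of each measured gene in 6 lists of integrin and laminin partners, with a vertical bar at the median of each list and random vertical offsets for legibility. Diamonds with names mark the 7 genes with an adjusted p under 0.05, of which VCAM1 and SLC3A2 lie above 0 and CD82, TNS1, NEDD9, HSPG2 and ZYX below it.

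Markers of other cell types were read beside these values. Of 6 endothelial markers none passed, and all 6 changes were above 0, as were 9252 of all 18417 genes. Whether endothelial cells had a part in the LAMA4 values was not tested. CDH5, KDR, PECAM1 and VWF lay at or below the silent bound in both groups. TEK (8.57 in control, 9.04 after oncostatin M) and CLDN5 (6.96 and 7.06) lay above it in both. The mean level of the 6 markers ran from 6.08 to 6.20 on control arrays and from 6.15 to 6.43 on treated arrays. TEK differed by 0.47 (adjusted p = 0.182, limma), with all treated arrays above all controls. Of 8 epithelial markers KRT18 was higher past the threshold, at 8.98 ± 0.11 against 9.50 ± 0.12. Of 7 leukocyte markers CD14 was, at 6.39 ± 0.17 against 7.83 ± 0.22, beside 1.72% of all genes. KRT8 (7.76 in control) and CD68 (10.67) also lay above the silent bound and were not called, while EPCAM, CDH1, KRT5 and PTPRC lay below it in both groups, as did 4 of 5 platelet markers, none of which passed. Of 10 fibroblast markers 2 were higher and 1 lower, where 1.72% and 1.7% of all genes were, and their mean level ran from 11.61 to 11.70 in control and from 11.71 to 11.88 after oncostatin M.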

How the data were processed

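Total RNA of 3 untreated and 3 oncostatin M samples was hybridised to 1 array each, after purification on RNeasy columns and labelling with an Ambion kit, per the labels' protocols. The file holds deposited log2 levels. For these the authors used RMA and the program Affymetrix Expression Console 1.1, as named without settings per the submitters' processing notes. RMA corrects background, makes arrays alike and summarises probes, so changes are relative to other genes on the array and are shrunk at low intensity. A genome build for the array is not given here.

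Of 33297 probe sets 19460 had exactly 1 symbol, 1754 several and 12083 none, and 18417 genes were tested in R 4.3.3 with limma 3.58.1 (a linear model with group as its only term, eBayes, two-sided, Benjamini-Hochberg over all genes, threshold 0.05), without a filter on dim genes. Confidence intervals of 95% use the moderated variance. Members, gene lists and tests were chosen with earlier results of these data known. Members with an unadjusted p under 0.05 are given on every array, and of each partner list the genes that passed or, if none did, the gene with the smallest p. The fit was tested on simulated arrays of 18417 genes, where it recovered 54% of log2 changes of 0.5, 90% of 1 and 100% of 2. Of all genes called there, 6.29% had not been changed. The simulated noise was independent between genes and had no outlying array, so these rates need not hold for these samples. Alternatives were other normalizations, probe set choices, filters on dim genes and variance priors, weighted arrays, a replicate block, a threshold of 0.01 and each array left out. Promoter sequences are from RefSeq (GRCh38.p14), whose table had windows for 24 of 35 genes. Figures were drawn with matplotlib 3.10.9.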

Additional observations from a re-analysis of the deposited data

How the results depend on the processing

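LAMA4 kept its direction and its call under all 17 alternatives run, with changes from 1.27 to 1.34 and adjusted p from 3.1e-06 to 0.0033 (limma). The other 13 chains with an unadjusted p under 0.05 kept their direction in every alternative that gave a value. The main counts were 630 genes over the array, 1 of the 35 chains and 7 partner genes. The count of chains was 2 after a further quantile normalization, 2 with an intensity trend, 3 with genes at or below the silent bound left out, and 6 with array weights (ITGA7, ITGA10, ITGA11, ITGAV, ITGB5 and LAMA4). Over all genes array weights gave 1277 calls and a threshold of 0.01 gave 287. Partner genes called were 14 with genes at or below the silent bound left out, 16 with an intensity trend, 15 with array weights and 1 at a threshold of 0.01. The median change of the alpha chains was -0.19 with genes at or below the silent bound left out, when fewer chains were counted, and that of the laminin chains was 0.065 with array weights. With each array left out in turn the calls ran from 261 (without control 1) to 732 (without oncostatin M 1) over all genes, from 1 to 2 for the chains (ITGA10 added without oncostatin M 1, ITGB8 without oncostatin M 3) and from 0 to 7 for partner genes. In the same fits the laminin median ran from -0.033 to 0.067. With the replicate number as a block, 2 chains were called (ITGA8 added, adjusted p = 0.0449), 478 genes over the array and 4 partner genes. The labels do not say whether the numbers pair the samples. Deviations from the group means correlated at 0.064, -0.456 and 0.511 for replicates 1, 2 and 3, too few values to settle this. The cause of these differences was not tested. Small changes of chains near the silent bound are limited by signal over background.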
